A study of Mus musculus with 6 samples.

Results

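The genes described here are the nuclear genes of respiratory complexes II, III and IV, of cytochrome c and of ATP synthase (complex V), measured by RNA-seq in ventricles of single mouse embryos with and without Vhl. They were chosen by symbol alone: Cyc1, Cycs, and every symbol that begins with Sdh, Uqcr, Atp5, or Cox followed by a digit, apart from Cox4i1, Cox4i2, Cox6a1, Cox6a2, Cox7a1 and Cox7a2. The rule found 53 of the 13843 genes in the deposited table: 8 of complex II, 9 of complex III, Cycs, 10 subunits of complex IV, 9 assembly factors of complex IV and 16 of complex V. These groups were formed by symbol, so that Cox7a2l, a Cox7a-related protein, is counted with the complex IV subunits. All 53 were annotated as protein coding. The measured values played no part in the rule. Atp5g2, Cox7b2 and Cox8c also match the rule but had no row among the 13843 genes, so they were not analysed here. Each gene of the table reached a value of 1 in 3 or more libraries, and the 53 had 35 to 38281 reads per library.

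Each of the 6 libraries came from the ventricular tissue of 1 E12.5 embryo, on a C57BL/6 background, after removal of the atria and the valve region. Both groups carried Vhl(flox/flox), so the floxed allele was shared. The 3 controls were Nkx2.5(+/+), and the 3 libraries labelled knockout were Nkx2.5(Cre/+), in which Cre recombinase deletes Vhl where Nkx2.5 is or has been active, mainly in cardiac muscle and its precursors. No group carried Cre without floxed Vhl, so loss of Vhl and presence of the Cre allele cannot be told apart. Litter 1 gave control 1 and knockout 1, and litter 2 gave control 2 and knockout 2. Control 3 (litter 3) and knockout 3 (litter 4) had no littermate here, although the design text names 3 litters.

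As background, complex II oxidises succinate to fumarate in the citric acid cycle and passes the electrons to coenzyme Q. Complex III moves them from coenzyme Q to cytochrome c, and complex IV from cytochrome c to oxygen. Complexes III and IV pump protons across the inner mitochondrial membrane, complex II does not, and complex V uses the returning protons to make ATP. Complex II is encoded wholly in the nucleus, whereas complexes III, IV and V each hold subunits of the mitochondrial genome. Vhl is the part of a ubiquitin ligase that recognises the hydroxylated alpha subunits of the hypoxia-inducible factors, which are otherwise degraded when oxygen is sufficient. These factors are known to raise glycolytic genes and to change the makeup and use of the respiratory chain.

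The targeted gene was read first, as a check of the labels. Vhl (ENSMUSG00000033933, chr6:113623959-113631633 on GRCm38) had values of 33.7, 36.3 and 38.6 in controls 1 to 3, of 11.1 in knockout 1, of 10.3 in knockout 2 and of 34.5 in the library labelled knockout 3. All values are scaled reads, that is whole reads per gene divided by 1 factor per library, and the columns sum to between 987131 and 1017772. Knockouts 1 and 2 were below all controls, and the library labelled knockout 3 lay within the control range, against its label. Limma gave Vhl a log2 fold change of -1.67 ± 0.11 (SE, adjusted p = 0.00025) over the 5 libraries without knockout 3, and -1.14 ± 0.39 (SE, limma adjusted p = 0.77) over all 6. The comparisons below therefore set knockouts 1 and 2 against the 3 controls, and give the library labelled knockout 3 apart. As that choice rests on Vhl itself, the adjusted p of Vhl over the 5 libraries is no separate check of the labels. The libraries held 9067805 to 12592902 reads each. Cardiomyocyte markers were abundant in every library, with a summed value over 10 genes of 36918 to 45265 across the controls, 43700 in knockout 1, 38673 in knockout 2 and 40841 in labelled knockout 3.

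Stretches of 4 promoters are shown because their genes were lower in knockouts than in littermates by the test with litter as a block (below) and had an entry in the RefSeq promoter table: Sdha, Sdhb, Uqcrc1 and Atp5g1. Each is the 250 bases before the RefSeq start on GRCm38.p6, read 5′ to 3′ on the strand of the gene, and capitals mark ACGTG and GCGTG, the core letters of the hypoxia response element, on either strand (CACGT and CACGC on the other). Sdha lies at chr13:74350241-74350490 on the minus strand, Sdhb at chr4:140961021-140961270 on the plus strand, Uqcrc1 at chr9:108936398-108936647 on the plus strand and Atp5g1 at chr11:96075632-96075881 on the minus strand.
Sdha: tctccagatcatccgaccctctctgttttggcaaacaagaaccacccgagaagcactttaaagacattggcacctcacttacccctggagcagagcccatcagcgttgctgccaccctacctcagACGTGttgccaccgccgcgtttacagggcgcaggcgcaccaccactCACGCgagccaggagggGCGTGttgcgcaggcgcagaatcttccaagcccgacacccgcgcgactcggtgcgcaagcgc
Sdhb: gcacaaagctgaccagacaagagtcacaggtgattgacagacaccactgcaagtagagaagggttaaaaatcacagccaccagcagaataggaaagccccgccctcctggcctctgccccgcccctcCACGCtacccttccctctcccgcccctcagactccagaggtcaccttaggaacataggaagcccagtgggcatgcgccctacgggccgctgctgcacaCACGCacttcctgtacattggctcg
Uqcrc1: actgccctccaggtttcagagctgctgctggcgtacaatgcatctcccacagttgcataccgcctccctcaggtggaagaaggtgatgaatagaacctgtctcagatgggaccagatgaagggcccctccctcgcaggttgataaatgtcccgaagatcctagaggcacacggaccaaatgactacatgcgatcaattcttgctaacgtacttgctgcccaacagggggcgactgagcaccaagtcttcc
Atp5g1: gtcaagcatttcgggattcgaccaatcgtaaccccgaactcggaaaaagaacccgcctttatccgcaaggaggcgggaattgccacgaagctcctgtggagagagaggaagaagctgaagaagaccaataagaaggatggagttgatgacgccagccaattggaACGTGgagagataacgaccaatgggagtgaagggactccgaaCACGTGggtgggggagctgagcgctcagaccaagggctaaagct
The letters occurred in 3 of these 4 windows, and that of Uqcrc1 held none. Sdha had 1 ACGTG and 2 GCGTG, Sdhb 2 GCGTG, and Atp5g1 3 ACGTG, of which 2 overlap as the palindrome CACGTG. Promoter entries matched 43 of the 53 genes, with 47 windows in all. At least 1 core stood in 57.4% of these windows, in 55.1% of 13329 windows of genes in the table and in 38.6% of all 32851 windows. The letters CCGGAAG (or CTTCCGG), a core of ETS family factors such as GABP, stood in 29.8%, 12.9% and 6.91% of the same windows, and GCGCATGC (or GCATGCGC), letters of an NRF1 site, in 8.51%, 4.19% and 2.26%. AAGGTCA (or TGACCTT), letters of an estrogen-related receptor site, stood in 4.26%, 2.78% and 4.08%. Such matches describe the letters and are no evidence of binding.

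Across the 53 genes the differences were small, mostly downward, and none passed the test over the 5 libraries. Limma called 0 of the 53 higher and 0 lower at an adjusted p under 0.05, where it called 3.01% of all 13843 genes higher and 1.24% lower. The smallest adjusted p was 0.065, for Uqcrc1. At an unadjusted p under 0.05, 10 genes were lower (Sdha, Sdhb, Sdhc, Cyc1, Uqcrb, Uqcrc1, Uqcrc2, Uqcrfs1, Cox7a2l and Atp5h) and 0 higher, where 8.05% of all genes were lower by that rule. On the recovered reads, edgeR also called 0 of the 53 (smallest adjusted p 0.081), with 1.18% of all genes called lower. At an unadjusted p under 0.05 it had 9 of the 53 lower, and the share of all genes by that rule was not counted. DESeq2 called 5 of the 53 lower (Sdha, Sdhc, Cyc1, Uqcrc1 and Uqcrfs1) and 0 higher, with 2.03% of all genes called lower.

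The common direction showed in counts. The log2 fold change was below 0 for 49 of the 53 genes, against 51.8% of all genes, and its median was -0.13, against -0.01 over all genes. Both knockouts lay below all 3 controls for 24 of the 53 (45.3%), against 17.0% of all genes, and both lay above for 1, Cox6b2, against 18.1% of all genes. Among genes with a mean value of at least 100, where counting error is smaller, both knockouts lay below all controls for 18 of 35 members and for 22.3% of all 2121 such genes. Genes of 1 complex are not independent, so these counts are descriptions. In bulk tissue, fewer cells of a type and less RNA per cell cannot be told apart.

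**Figure D1:**
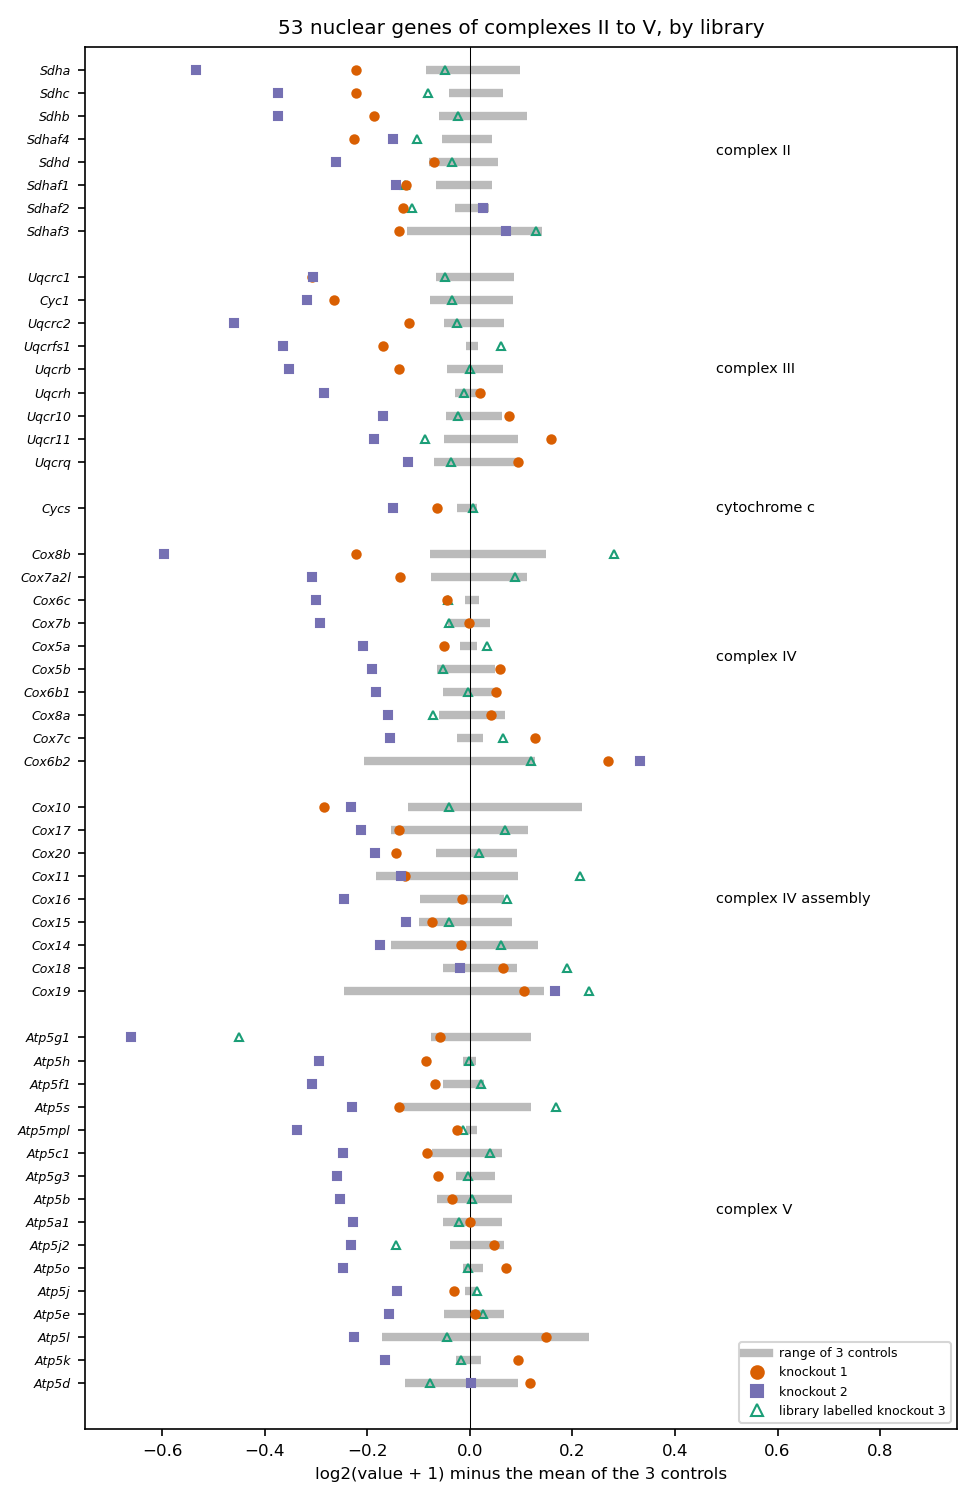
Each row is 1 of the 53 genes, and the x axis is log2(value + 1) in a library minus the mean of the 3 controls. Grey bars span the 3 controls, circles are knockout 1, squares knockout 2 and open triangles the library labelled knockout 3. Squares lie left of the grey bar for 46 genes and circles for 26 (31.0% and 31.2% of all genes lie there), while triangles lie inside it for 33 (56.1% of all genes).

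Complex II held the largest differences among the groups when its transcripts were summed, and its 4 subunits stood lower in both knockouts than in the mean of the controls. The summed value was 1472, 1330 and 1375 in controls 1 to 3, 1227 in knockout 1 and 1060 in knockout 2, with 1345 in labelled knockout 3. Both knockouts were below every control, and labelled knockout 3 was within the control range. Relative to the control mean the sums differed by -11.9%, -23.9% and -3.4% in knockouts 1, 2 and labelled 3. All 8 genes had a log2 fold change below 0, with a median of -0.18, and 5 of 8 (Sdha, Sdhb, Sdhc, Sdhaf1 and Sdhaf4) had both knockouts below all controls. Over all genes these shares were 51.8% and 17.0%.

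Sdha, the flavoprotein that oxidises succinate, had values of 607, 534 and 561 in controls 1 to 3, of 485 in knockout 1, of 391 in knockout 2 and of 547 in labelled knockout 3. Knockouts 1 and 2 lay below every control, and labelled knockout 3 lay among the controls. Its log2 fold change was -0.38 ± 0.11 (SE, limma adjusted p = 0.11), the most negative of the complex. Sdhb, the iron-sulphur subunit that passes electrons on, stood at 287, 256 and 254 across the controls, 233 and 204 for knockouts 1 and 2, and 261 for labelled knockout 3, a log2 fold change of -0.28 ± 0.09 (SE, limma adjusted p = 0.14). The groups of Sdhb did not overlap apart from labelled knockout 3. Sdhc, an anchor in the membrane next to the coenzyme Q site, stood at 211, 198 and 196 across the controls, 173 and 155 for knockouts 1 and 2, and 190.1 for labelled knockout 3, the lowest adjusted p of the complex (-0.30 ± 0.08, SE, limma adjusted p = 0.080). Labelled knockout 3 lay just below the controls for this gene. Sdhd, the other membrane anchor, stood at 291, 266 and 286 across the controls, 267 and 234 for knockouts 1 and 2, and 274 for labelled knockout 3, so that knockout 1 overlapped the controls (log2 fold change -0.17 ± 0.08, SE, limma adjusted p = 0.36).

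The 4 assembly factors of complex II had control means between 9.91 and 41.5. Sdhaf1, which helps insert the iron-sulphur clusters, had a log2 fold change of -0.13, and Sdhaf4, which helps join Sdha to Sdhb, one of -0.19. Sdhaf2, needed to attach flavin to Sdha, was at -0.05. Sdhaf3, which acts with Sdhaf1, stood at 8.99, 10.99 and 9.75 across the controls, and at 8.89, 10.4 and 10.9 across knockout 1, knockout 2 and labelled knockout 3, with a log2 fold change of -0.03. Its knockouts lay on both sides of the control mean. Per kilobase of annotated transcript, the control level was 233 for Sdhb, 228 for Sdhd, 196 for Sdha and 63.5 for Sdhc, which rests on the length of 1 transcript per gene.

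**Figure D2:**
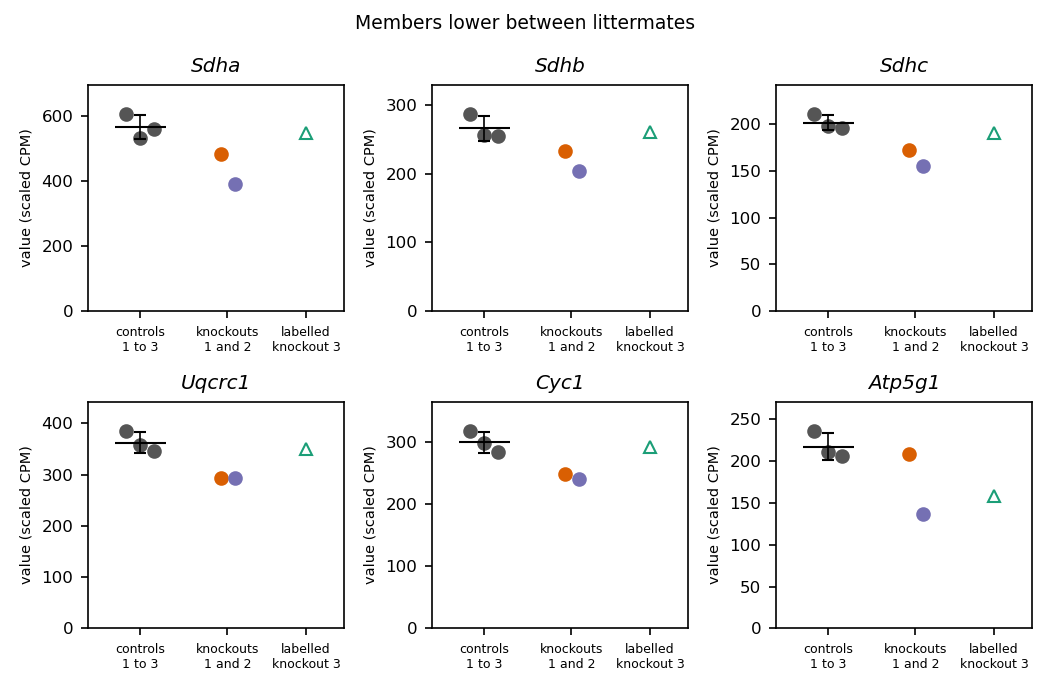
The y axis gives scaled reads per gene from 0, with controls as grey points, their mean as a black line and their SD (n = 3) as the error bar, knockout 1 in orange, knockout 2 in purple and labelled knockout 3 as an open green triangle. The 6 genes are those lower than in littermates with litter as a block, and labelled knockout 3 sits apart from the controls for Atp5g1 (158) and just below them for Sdhc (190.1).

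Complex III had the most negative median of the groups as formed here, where the complex II group also holds assembly factors. The complex II subunits Sdha, Sdhb, Sdhc and Sdhd alone were at -0.38, -0.28, -0.30 and -0.17, and its assembly factors between -0.19 and -0.03. The genes of complex III fell into those with both knockouts below all controls and those in which knockout 2 alone was low. The summed value was 2372, 2256 and 2260 across the controls, 2110 in knockout 1, 1822 in knockout 2 and 2264 in labelled knockout 3. Both knockouts were again below every control. All 9 genes had a log2 fold change below 0, with a median of -0.25, and 5 of 9 (Uqcrc1, Uqcrc2, Cyc1, Uqcrfs1 and Uqcrb) had both knockouts below all controls. Over all genes these shares were 51.8% and 17.0%. Over all 6 libraries the median was -0.16.

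Uqcrc1, a large core protein on the matrix side, stood at 384, 357 and 346 across the controls, 292 and 293 for knockouts 1 and 2, and 350.1 for labelled knockout 3. Both knockouts were alike and below all controls, with a log2 fold change of -0.31 ± 0.07 (SE, limma adjusted p = 0.065). Cyc1, cytochrome c1, which hands electrons to cytochrome c, stood at 316, 297 and 283 across the controls, 248 and 239 for knockouts 1 and 2, and 291 for labelled knockout 3 (-0.29 ± 0.07, SE, limma adjusted p = 0.079). The knockouts again lay close together and below the controls. Uqcrc2, the other core protein, stood at 616, 568 and 582 across the controls, 542 and 428 for knockouts 1 and 2, and 578 for labelled knockout 3 (-0.29 ± 0.11, SE, limma adjusted p = 0.21). Here knockout 2 was much lower than knockout 1. Uqcrfs1, the Rieske iron-sulphur protein, had a log2 fold change of -0.27 ± 0.08 (SE, limma adjusted p = 0.11), and Uqcrb, a small subunit near the quinone site, one of -0.25 ± 0.08 (SE, limma adjusted p = 0.18).

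The other 4 genes of complex III encode small subunits: Uqcrh (the hinge protein), Uqcrq, Uqcr10 and Uqcr11. Their log2 fold changes lay between -0.13 and -0.01. In knockout 1 they stood 1.39% above the control mean for Uqcrh, 5.36% for Uqcr10, 6.73% for Uqcrq and 11.6% for Uqcr11, and in knockout 2 they differed from it by -18.0%, -11.2%, -8.26% and -12.4%. Uqcrq, for example, stood at 87.5, 80.2 and 77.8 across the controls, 87.4 and 75.1 for knockouts 1 and 2, and 79.7 for labelled knockout 3. For all 4, knockout 2 was below every control and knockout 1 was not.

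Cycs, the soluble carrier between complexes III and IV and a trigger of apoptosis when released, differed little. It stood at 141, 137 and 141 across the controls, 134 and 126 for knockouts 1 and 2, and 141 for labelled knockout 3. Both knockouts were below the narrow control range, with a log2 fold change of -0.11 ± 0.07 (SE, limma adjusted p = 0.47).

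The subunits of complex IV differed less in knockout 1 than in knockout 2. The summed value was 1887, 1836 and 1871 across the controls, 1866 in knockout 1, 1593 in knockout 2 and 1853 in labelled knockout 3, so that knockout 1 lay at the control mean (0.057% above) and knockout 2 differed by -14.6%. The median log2 fold change was -0.10, and without knockout 2 it was 0.02. For 9 of 10 genes the log2 fold change was below 0, against 51.8% of all genes. For 4 (Cox5a, Cox6c, Cox7a2l and Cox8b) both knockouts lay below all controls, against 17.0% of all genes.

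Cox7a2l, a Cox7a-related protein, stood at 186, 191 and 212 across the controls, 179 and 158 for knockouts 1 and 2, and 209 for labelled knockout 3. Its log2 fold change was -0.22 ± 0.09 (SE, limma adjusted p = 0.23). Cox8b, the isoform of subunit 8 of heart and skeletal muscle, was low in all libraries, at 8.76, 7.38 and 7.34 across the controls, 6.55 and 4.82 for knockouts 1 and 2, and 9.71 for labelled knockout 3. It had the most negative log2 fold change of all 53 genes, -0.41 ± 0.18 (SE, limma adjusted p = 0.29), on as few as 55 reads in a library, while labelled knockout 3 was the highest of the 6. Cox8a, its widely expressed counterpart, stood at 287, 262 and 272 across the controls, 282 and 245 for knockouts 1 and 2, and 260.3 for labelled knockout 3 (-0.06 ± 0.08, SE, limma adjusted p = 0.77). Knockout 1 was within the control range for Cox8a, and without knockout 2 the log2 fold change was 0.04. Per kilobase, the control level was 498 for Cox8a and 21.8 for Cox8b.

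The pair of Cox6b isoforms, which cap the side facing the intermembrane space, had fold changes of opposite sign. Cox6b1, the widely expressed form, stood at 307, 295 and 285 across the controls, 306 and 260.2 for knockouts 1 and 2, and 295 for labelled knockout 3 (-0.07 ± 0.09, SE, limma adjusted p = 0.76). Cox6b2, best known from testis, stood at 4.88, 4.70 and 3.67 across the controls, 5.50 and 5.78 for knockouts 1 and 2, and 4.85 for labelled knockout 3. Both knockouts were above all controls for Cox6b2 alone among the 53 genes, at a log2 fold change of 0.30 ± 0.18 (SE, limma adjusted p = 0.46) and with 35 reads in the library where it had fewest. Of the other subunits, Cox5a, Cox5b, Cox6c, Cox7b and Cox7c had log2 fold changes between -0.17 and -0.01, and in knockout 2 all 5 were below every control.

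The assembly factors of complex IV were low to moderate in level, with control means of 12.02 to 79.5, and overlapped the controls for most genes taken singly, although their sum was lower in both knockouts. The summed value was 294, 292 and 290.4 across the controls, 274 in knockout 1, 263 in knockout 2 and 301 in labelled knockout 3. The median log2 fold change of the 9 genes was -0.13 (-0.06 over all 6 libraries), and 7 were below 0, against 51.8% of all genes. For 2 of 9 (22.2%), Cox10 and Cox20, both knockouts lay below all controls, near the 17.0% of all genes. Cox10, which attaches the farnesyl tail in heme A synthesis, stood at 40.9, 32.1 and 32.7 across the controls, 28.6 and 29.7 for knockouts 1 and 2, and 34.1 for labelled knockout 3 (-0.26 ± 0.12, SE, limma adjusted p = 0.33). Control 1 stood apart from the other controls for this gene. Cox15, which completes heme A, stood at 80.3, 84.2 and 74.1 across the controls, 75.4 and 72.7 for knockouts 1 and 2, and 77.2 in labelled knockout 3 (-0.10 ± 0.08, SE, limma adjusted p = 0.59). Cox19, a copper-related factor of the intermembrane space, had the highest log2 fold change of the group, 0.14 ± 0.14 (SE, limma adjusted p = 0.68), with 22.5, 16.9 and 21.8 across the controls, and at 21.9, 22.9 and 24.0 across knockout 1, knockout 2 and labelled knockout 3. The groups overlapped for Cox15 and Cox19.

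**Figure D3:**
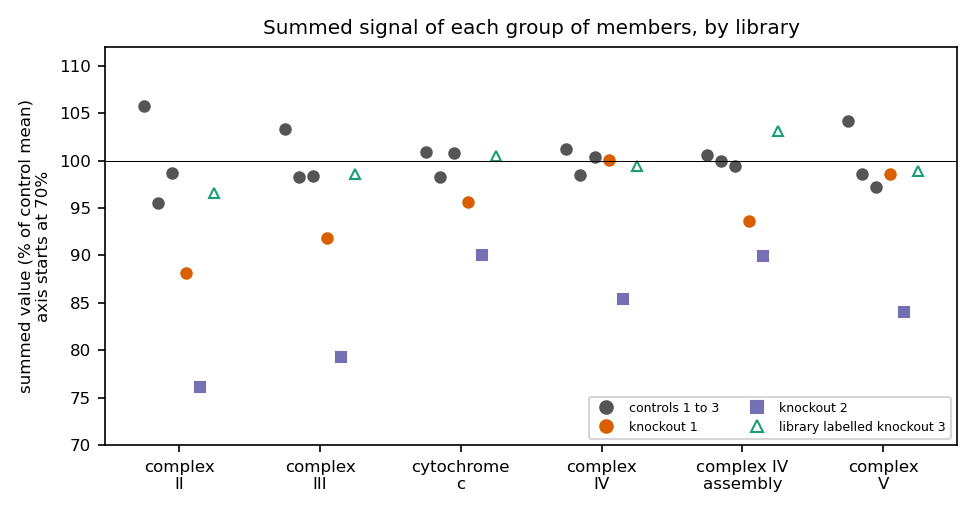
The y axis gives the summed value of each group of genes as a percentage of the control mean, on an axis that starts at 70%, with controls in grey, knockout 1 as orange circles, knockout 2 as purple squares and labelled knockout 3 as open green triangles. Knockout 2 lies below the controls in all 6 groups, from -9.9% for cytochrome c to -23.9% for complex II, while knockout 1 reaches -11.9% for complex II and 0.057% for complex IV.

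Complex V held the most abundant transcripts, and knockout 2 again stood lowest. The summed value of its 16 genes was 9648, 9135 and 9000 across the controls, 9135 in knockout 1, 7787 in knockout 2 and 9161 in labelled knockout 3. Knockout 1 lay inside the control range and knockout 2 below it. The median log2 fold change was -0.13, 15 of 16 genes were below 0, and 7 (Atp5c1, Atp5f1, Atp5g3, Atp5h, Atp5j, Atp5mpl and Atp5s) had both knockouts below all controls. Over all genes these shares were 51.8% and 17.0%. Knockout 2 was lower than knockout 1 for all 16.

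In the catalytic head, Atp5b, the beta subunit, had the highest value of the 53 genes and the highest level per kilobase, 1657. It stood at 3358, 3133 and 3033 across the controls, 3094 and 2660 for knockouts 1 and 2, and 3182 for labelled knockout 3 (-0.14 ± 0.12, SE, limma adjusted p = 0.62). Knockout 1 lay among the controls. Atp5a1, the alpha subunit, had a log2 fold change of -0.11, Atp5c1, the gamma subunit of the rotor stalk, one of -0.17, and Atp5e, the epsilon subunit, one of -0.07. Atp5d, the delta subunit of the central stalk, was the 1 gene of the complex above 0, at 188, 180.3 and 161 across the controls, 191 and 176 for knockouts 1 and 2, and 167 for labelled knockout 3 (0.06 ± 0.09, SE, limma adjusted p = 0.78).

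The membrane rotor is a ring of c subunits, whose genes encode the same mature protein with different import signals. Atp5g1 stood at 236, 210.4 and 206 across the controls, 208 in knockout 1, 137 in knockout 2 and 158 in labelled knockout 3. The knockouts spread widely: knockout 1 lay among the controls, and knockout 2 and labelled knockout 3 lay far below them, although the latter had Vhl at the control level. The log2 fold change was -0.36 ± 0.16 (SE, limma adjusted p = 0.30). Without knockout 1 it was -0.66 (limma adjusted p = 0.039, where 0.318% of all genes were called lower), and without knockout 2 it was -0.06 (limma adjusted p = 0.83). Atp5g3 stood at 711, 675 and 678 across the controls, 659 and 575 for knockouts 1 and 2, and 686 for labelled knockout 3 (-0.16 ± 0.09, SE, limma adjusted p = 0.39). Per kilobase, the control level was 952 for Atp5g3 and 46.1 for Atp5g1, on annotated lengths of 723 and 4715 bp. The control means before division by length were 688 and 217, so the gap per kilobase depends strongly on the transcript chosen. For the stator and the membrane part, Atp5f1 (subunit b) and Atp5h (subunit d) both had log2 fold changes of -0.19, Atp5j (coupling factor 6) and Atp5o (the subunit that ties the stator to the head) both of -0.09, and Atp5j2, Atp5k, Atp5l and Atp5mpl between -0.18 and -0.04. Atp5s, a more distant relative named coupling factor B, had a log2 fold change of -0.18 at a control mean of 10.3. A further identifier carries the symbol Atp5o in the annotation, and reads shared between overlapping loci make that value uncertain.

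The litters gave different pictures of the same genes. Between littermates of litter 1, the log2 difference of knockout 1 minus control 1 was below 0 for 41 of 53 genes with a median of -0.06, and between littermates of litter 2 it was below 0 for 49 of 53 with a median of -0.20. Both differences were below 0 for 38 of 53 (71.7%), against 32.6% of all genes. Knockout 2 was below knockout 1 for 46 of 53, and control 2 below control 1 for 40, against 52.0% and 49.4% of all genes. The genes of complex II alone had a more negative median in litter 1 (-0.22) than in litter 2 (-0.17), while complex III had -0.09 and -0.29, complex IV -0.03 and -0.20, its assembly factors -0.05 and -0.15, and complex V -0.07 and -0.22. The complex II subunits Sdha, Sdhb, Sdhc and Sdhd (-0.12 and -0.18) were each more negative in litter 2, as was the assembly factor Sdhaf3 (-0.01 and -0.07). The assembly factors Sdhaf1 (-0.17 and -0.08), Sdhaf2 (-0.12 and 0.06) and Sdhaf4 (-0.27 and -0.16) went the other way.

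Fitted to both littermate pairs with a term for the litter (the replicate block), limma called 6 of the 53 genes lower and 0 higher, where it called 3.21% of all genes lower and 4.92% higher. The fit left 1 residual degree of freedom, so its spread is mostly pooled over genes. The 6 were Sdha (log2 fold change -0.39, limma adjusted p = 0.020), Sdhb (-0.31, 0.036), Sdhc (-0.32, 0.033), Cyc1 (-0.33, 0.029), Uqcrc1 (-0.34, 0.029) and Atp5g1 (-0.40, 0.034). Sdha was lower by -0.32 in litter 1 and -0.45 in litter 2, Sdhb by -0.30 and -0.32, Sdhc by -0.29 and -0.35, Cyc1 by -0.35 and -0.31, and Uqcrc1 by -0.39 and -0.29. These 5 thus had differences of like size in both litters, and Atp5g1, at -0.18 and -0.62, did not. Part of the spread in this fit is the disagreement between the litters, so such likeness is partly built into being called. Among the 53 genes, no subunit or assembly factor of complex IV was called in this fit, where the lowest limma adjusted p was 0.16 for Cox10. Of the complex IV genes outside the symbol rule (below), this fit called Ndufa4 (-0.53, limma adjusted p = 0.0018) and Lrpprc (-0.36, 0.019) lower. It called Higd1a higher (1.58, limma adjusted p = 8.0e-07). Whether the complexes differ from each other in their response was not tested.

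**Figure D4:**
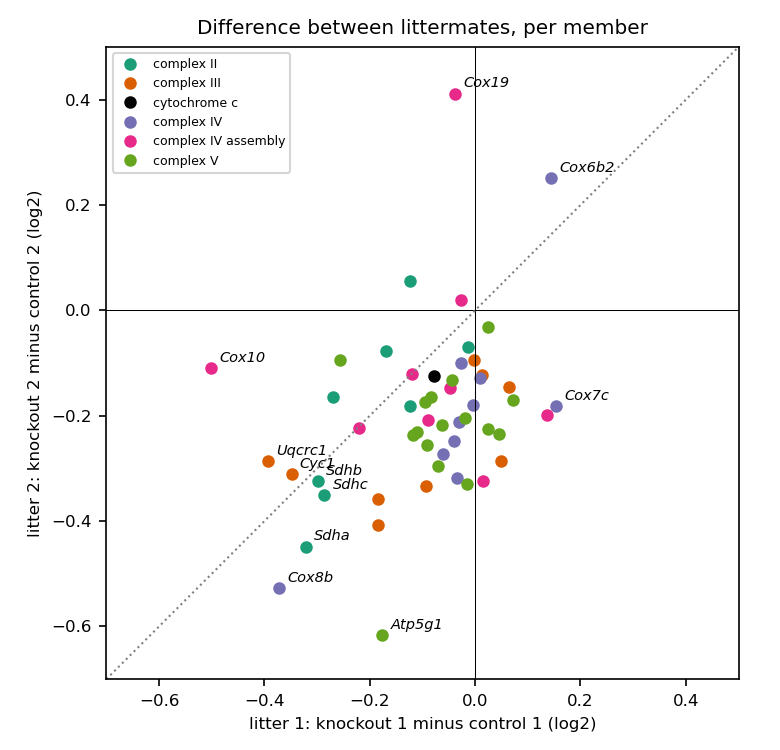
Each point is 1 of the 53 genes, with the log2 difference of knockout 1 minus control 1 (litter 1) on the x axis and of knockout 2 minus control 2 (litter 2) on the y axis, coloured by complex, and the dotted line marks equal differences. Left of and below 0 lie 38 genes, most complex IV and V genes sit near 0 on the x axis and below 0 on the y axis, and Sdha, Sdhb, Sdhc, Cyc1 and Uqcrc1 lie near the dotted line.

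In the library labelled knockout 3, the value lay within the control range for 33 of 53 genes (62.3%), near the 56.1% of all genes, below it for 10 and above it for 10. Its median log2 difference from the control mean was -0.01, against 0.00 over all genes. It was above both other knockouts for 34 of 53 genes, and for 5069 of all 13843. With all 6 libraries as labelled, limma called 0 of all 13843 genes in either direction (0% higher and 0% lower), with 859 at an unadjusted p under 0.05. By that unadjusted rule 3 of the 53 were lower and 0 higher, against 2.57% of all genes lower, and the smallest adjusted p among the 53 was 0.77. The median log2 fold change of the 53 over 6 libraries was -0.09.

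Transcript length moved with the difference in litter 1. Across the 53 genes the log2 difference of litter 1 had a Pearson r of -0.37 (Spearman -0.42) with the length of the annotated transcript, and in litter 2 r was 0.00. Across 2114 genes with a mean value of at least 100, r was -0.24 in litter 1 and 0.00 in litter 2. The points share their libraries, so these values are descriptions. The 24 genes with transcripts under 1000 bp had medians of -0.02 in litter 1 and -0.19 in litter 2, and the 29 longer ones -0.12 and -0.22. In complex III, Uqcrb, Uqcrh, Uqcr10 and Uqcr11 were under that length and Uqcrc1, Uqcrc2, Cyc1, Uqcrfs1 and Uqcrq above it. Sdha, Sdhb and Sdhc were above it too. The part of length in the differences was not tested.

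**Figure D5:**
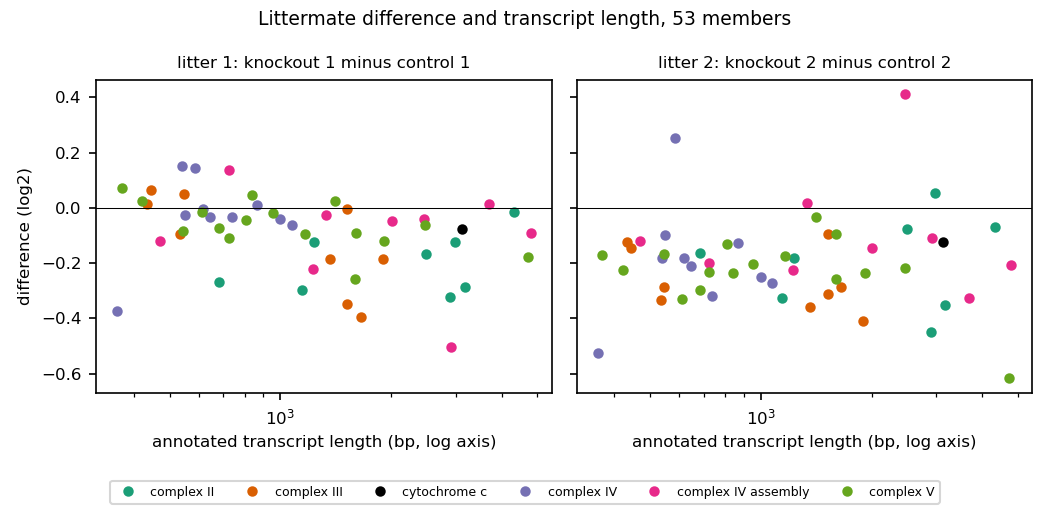
The x axis is the annotated transcript length in base pairs on a log axis, and the y axis the log2 difference between littermates, with litter 1 on the left and litter 2 on the right, for the 53 genes coloured by complex. Points slope downward in litter 1 (r of -0.37) and show no slope in litter 2 (r of 0.00).

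Other genes of the same pathway came from lists by function. Of 18 measured complex IV factors outside the symbol rule, 1 was higher and 2 lower by limma over 5 libraries (edgeR called 2 of the 18 and DESeq2 3). Higd1a, a hypoxia-induced protein that binds complex IV, stood at 50.1, 55.8 and 55.3 across the controls, 172 and 149 for knockouts 1 and 2, and 54.6 for labelled knockout 3, a rise of 1.56 ± 0.09 on the log2 scale (SE, limma adjusted p = 0.00017). Ndufa4, a subunit now placed in complex IV, fell from 255, 246 and 259 across the controls to 185 and 163 in knockouts 1 and 2, with 249 in labelled knockout 3 (log2 fold change -0.54 ± 0.08, SE, limma adjusted p = 0.0088). Lrpprc, which stabilises mitochondrial mRNAs, stood at 189, 170.4 and 173 across the controls, and at 143, 137 and 181 for knockout 1, knockout 2 and labelled knockout 3 (-0.34 ± 0.07, SE, limma adjusted p = 0.048). For these 3 genes knockouts 1 and 2 lay outside the control range and labelled knockout 3 within it.

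Among 14 genes of coenzyme Q synthesis and heme attachment, 0 were higher and 1 lower: Coq8a, an atypical kinase of the pathway, stood at 16.6, 14.9 and 18.5 across the controls, and at 8.97, 7.45 and 20.0 for knockout 1, knockout 2 and labelled knockout 3 (-0.94 ± 0.15, SE, limma adjusted p = 0.014). The median of that list was -0.04. At an unadjusted p under 0.05 limma had 4 of the 14 lower and 0 higher, where 8.05% of all genes were lower. By adjusted p, edgeR called 1 of the 14 and DESeq2 2. None of the 6 assembly factors of complexes II and III outside the rule and none of the 5 complex V factors passed the limma test, with medians of -0.04 and -0.13. At an unadjusted p under 0.05, 1 of the former was higher and 1 lower and 1 of the latter was lower, and edgeR and DESeq2 called 0 of either. The 6 subunits of complexes III to V encoded by the mitochondrial genome had a median of -0.26, and all 6 were below 0, with 0 called by limma (0 at an unadjusted p under 0.05) or edgeR and 2 by DESeq2. Their summed value was 45296 to 48931 across the controls, 42110 in knockout 1, 35220 in knockout 2 and 50591 in labelled knockout 3, so that knockout 2 was again lowest. Of 17 genes of the organelle outside the chain, 1 was higher and 1 lower, with a median of -0.08 and 14 below 0. At an unadjusted p under 0.05 limma had 1 of the 17 higher and 3 lower. By adjusted p, edgeR called 2 of them and DESeq2 3. Vdac1, the channel of the outer membrane, stood at 568, 554 and 580.2 across the controls, and at 785, 695 and 579 for knockout 1, knockout 2 and labelled knockout 3 (0.38 ± 0.08, SE, limma adjusted p = 0.047). Hspd1, the matrix chaperonin, stood at 855, 804 and 809 across the controls and 662, 626 and 797 in the same order (-0.35 ± 0.08, SE, limma adjusted p = 0.049).

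Markers of other cell types also moved between the groups. Limma, edgeR and DESeq2 called 0 of 10 cardiomyocyte markers (1 higher at an unadjusted p under 0.05 by limma), with a median log2 fold change of -0.06. Of 6 epicardial markers 3 were higher (Wt1, Upk1b and Krt19), and the summed value was 289 to 357 across the controls, 703 for knockout 1, 603 for knockout 2 and 333 for labelled knockout 3. With the replicate block 5 of the 6 were called higher by limma, as Tbx18 (adjusted p = 0.031) and Upk3b (adjusted p = 7.6e-05) passed too. Of 6 fibroblast and smooth muscle markers 2 were higher (Acta2 and Tagln), with sums of 1757 to 2523 across the controls, 3701 and 3050 in knockouts and 1708 in labelled knockout 3. Of 7 endothelial and endocardial markers 1 was higher (Emcn), with sums of 1344 to 1453, 1576 and 1558, and 1301. At an unadjusted p under 0.05 limma had 4 of the 7 higher and 0 lower. By adjusted p, edgeR called 1 and DESeq2 2. For 5 of the 7 both knockouts lay above all controls, against 18.1% of all genes. Of 3 measured atrial markers 1 was higher (Myl7), with sums of 2717 to 2910 across the controls, 3805 and 3265 in knockouts and 2544 in labelled knockout 3. Erythroid sums over 9 genes ran from 6317 to 14244 across the controls and were 6950 in knockout 1, 15284 in knockout 2 and 11266 in labelled knockout 3, with 0 called by limma (0 at an unadjusted p under 0.05), edgeR or DESeq2 over the 5 libraries. With the replicate block limma called 1 lower, Hbb-bs (log2 fold change -0.77, adjusted p = 7.6e-05). Macrophage sums over 6 genes were 17.5 to 37.0 across the controls, and 20.0, 21.2 and 23.4 for knockout 1, knockout 2 and labelled knockout 3, also with 0 called (1 lower at an unadjusted p under 0.05 by limma). No marker of any list was at 0 in a library. The part of these cell types in the differences of the 53 genes was not tested.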

How the data were processed

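RNA from 6 single ventricles was sequenced as single 75-base reads from 500 ng of total RNA, per the labels' protocols. CASAVA 1.8.2, cutadapt 1.3, RSEM 1.2.3 and GRCm38 were named in the submitters' processing notes. For the scaling, the gene filter and the annotation release no source was at hand. The values deposited by the authors are a scaled signal: 100% were whole multiples of 1 step per library (tolerance 0.01 reads), which is what division of whole read numbers by a single factor per library gives. These factors equalled edgeR's effective library sizes by the trimmed mean of M values at a ratio of 1.00. RSEM shares out reads of near-identical loci, and the libraries did not mark strand, so values of close copies and overlapping genes are uncertain.

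Symbols, coordinates and lengths came from GENCODE M21 (GRCm38; 13675 genes with a symbol, 168 without). Limma 3.58.1 with trend (R 4.3.3) was fitted on log2(value + 1) over all genes, with Benjamini-Hochberg adjustment over 13843 genes and a threshold of 0.05. Fold changes are knockout over control on that scale, which understates changes of low genes. P-values measure the spread between embryos. Alternatives were all 6 libraries, litters 1 and 2 with litter as a block, other pseudocounts, filters and scalings, edgeR 4.0.16 and DESeq2 1.42.0 on the recovered reads, and leaving out each library. The edgeR test on the recovered reads was an alternative because the deposited values are scaled. The scripts were tested on simulated data.

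Litters come from the labels. Deviations from the group means of same-litter libraries correlated at 0.34 in litter 1 and 0.26 in litter 2, over 11316 genes. Here the knockout mean held knockouts 1 and 2 only, so their deviations mirror each other and these values are not separate checks. With all 3 knockouts in the mean they were 0.20 and 0.33. Libraries of different litters were not compared in this way.

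Named genes were members past the threshold in either fit, the highest and lowest log2 fold change and highest mean value of each group, and a fixed list of subunits and isoforms, 22 in all. Further members are named where a short count or a complex is described. The members, lists and tests were chosen with earlier results of these data known. Lengths are those of 1 principal transcript per gene, the longest where several were annotated. Promoters come from RefSeq on GRCm38.p6, whose starts can differ from those of GENCODE.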

Additional observations from a re-analysis of the deposited data

How the results depend on the processing

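Of the 53 genes, 0 were called lower over the 5 libraries in every setting tried except 4: the replicate block on litters 1 and 2 gave 6 (6 also with all 6 libraries and the block), DESeq2 5, scaling by library total 1 (Uqcrc1) and leaving out each library 0 to 1 (Atp5g1, without knockout 1). Over all genes, the 416 higher became 0 with all 6 libraries, 681 with the block and 146 to 297 with 1 library left out, lowest without knockout 1. The 172 lower became 0, 444 and 44 to 90, and 276 with DESeq2. With all 6 libraries, the block gave 669 higher and 459 lower, and leaving out 1 library gave 0 to 416 higher and 0 to 172 lower, the highest without labelled knockout 3. In the block with all 6 libraries, control 3 and labelled knockout 3 each take up a litter term of their own. Its fold changes thus come from the littermates of litters 1 and 2 alone, and its 6 calls are no separate check. The median log2 fold change of the 53 genes ranged from -0.23 (without knockout 1) to -0.058 (without knockout 2) as 1 library was left out. The ranges were -0.31 to -0.12 for complex III (-0.16 with all 6 libraries), -0.15 to -0.064 for cytochrome c, -0.20 to 0.019 for complex IV (above 0 without knockout 2), -0.18 to -0.074 for its assembly factors (-0.063 with all 6 libraries) and -0.24 to -0.028 for complex V. Among the 22 named genes, with 1 library left out, signs turned for Atp5d (-0.0039 to 0.12, and -0.0039 with the block), Cox6b1 (up to 0.051), Cox8a (up to 0.041), Sdhaf3 (-0.14 to 0.071, and 0.021 with all 6 libraries) and Uqcrq (up to 0.095, and 0.04 without control 1). The cause was not tested. The other members were not followed in this way. Some of them stood above the control mean in knockout 1, such as Uqcr11 (11.6%), Atp5l (10.2%) and Cox7c (9.30%). Their log2 fold changes below 0 thus rest on knockout 2. The block changed no other call among the 22 named genes. Depth limits Cox6b2, Cox8b, Sdhaf3 and Atp5s most, with fewer than 100 reads in at least 1 library.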
